A study of Mus musculus with 6 samples.

Results

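Schwann cells wrap the axons of peripheral nerves, and 8 genes that mark them or build their myelin sheath were followed in the mammary gland of hepsin-deficient mice. The genes were Pmp22, Mbp, Prx, Mag, Sox10, S100b, Cdh19 and Ncam1, chosen by gene symbol among the 55450 genes of the count table. The glands came from virgin female mice on the FVB background: 3 of Hpn-/- mice, whose gene for the transmembrane serine protease hepsin was disrupted with CRISPR/Cas9, and 3 of wild-type (WT) mice. No treatment is named. The ages were 6, 6 and 5 weeks in Hpn-/- replicates 1, 2 and 3, and 2, 6 and 5 weeks in WT replicates 1, 2 and 3, so age and genotype were not balanced. The labels give neither the allele nor the number of founders, and do not say that each library is a separate animal. The p-values therefore measure only the spread between these libraries. The same-aged Hpn-/- replicates 1 and 2 carry different sample codes. They differed beyond counting noise, with a chi-square divided by its degrees of freedom of 28.3. Whether they come from separate animals was not tested.

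Myelin is a stack of Schwann cell membrane in which PMP22 lies in the compact layers and myelin basic protein holds the cytoplasmic faces together. Periaxin ties the outer surface to the basal lamina and myelin-associated glycoprotein (Mag) faces the axon. SOX10 is the transcription factor that Schwann cells need at every stage, and EGR2 (Krox20) drives myelination together with it. The mammary gland holds small nerves that follow ducts and vessels, and several of these genes are also used outside nerves: Pmp22 by fibroblasts, Sox10 by mammary epithelium, S100b by adipocytes, and Mbp, through its Golli transcripts, by lymphocytes.

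Deposited counts summed to between 10971661 and 18807615 per library, of which loci derived from ribosomal RNA took 78.0% to 84.3%, leaving 1798932 to 3071401 counts for other genes. Hpn itself had 4, 3 and 5 counts in Hpn-/- replicates 1, 2 and 3, and 12, 6 and 4 counts in WT replicates 1, 2 and 3, too few to be tested, so it is a weak check of the labels. Over all 12520 genes that passed the count filter, edgeR's quasi-likelihood test called 2 genes (Errfi1 and Sik1, both higher in Hpn-/-) at an adjusted p under 0.05. The skeletal muscle list (18 genes) summed to 1104, 271 and 15.2 CPM (counts scaled to the library size by TMM) in Hpn-/- replicates 1, 2 and 3, and to 723, 120 and 53.4 CPM in WT replicates 1, 2 and 3, so libraries of both genotypes differed in how much muscle RNA they held.

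Promoter windows ran from 250 bases before to 50 bases after an annotated start (RefSeq, GRCm38.p6). Those searched were 9 windows of 4 of the 8 genes, Pmp22, Prx, Mag and S100b. Mbp, Sox10, Cdh19 and Ncam1 were not searched, so whether they hold a match was not tested. The core motifs of the known regulators were searched on both strands, ACAAAG or ACAATG for SOX factors and GTGGGCG for EGR factors, and neither motif overlaps the other. A SOX core stood in 2 of the 9 windows, which are overlapping windows of Mag with the same match. Over the 32851 windows of the same length kept for comparison, which are not every annotated start, the share was 28.6%. The EGR core stood in none of the 9, against 7.97% of the same 32851 windows. Shown are Pmp22, the most abundant of the 8 genes per exon length, Prx, which had the smallest p of the 8, and Mag. Of the 4 genes searched, Mag was the only one with a match (capitals, the reverse complement of ACAAAG, beginning at position -67 from the start).
Pmp22 (chr11:63128732-63129031, plus strand): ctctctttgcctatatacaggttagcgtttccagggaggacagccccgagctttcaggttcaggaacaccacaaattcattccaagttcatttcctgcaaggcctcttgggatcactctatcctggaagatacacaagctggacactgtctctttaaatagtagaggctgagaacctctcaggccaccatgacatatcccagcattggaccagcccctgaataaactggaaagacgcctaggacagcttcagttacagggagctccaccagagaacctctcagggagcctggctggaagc
Prx (chr7:27499074-27499373, plus strand): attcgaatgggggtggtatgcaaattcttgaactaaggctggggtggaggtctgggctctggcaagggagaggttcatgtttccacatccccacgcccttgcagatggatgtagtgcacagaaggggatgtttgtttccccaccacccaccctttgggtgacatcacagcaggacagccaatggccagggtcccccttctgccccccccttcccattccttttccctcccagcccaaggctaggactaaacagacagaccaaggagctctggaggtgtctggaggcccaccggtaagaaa
Mag (chr7:30914873-30915172, minus strand): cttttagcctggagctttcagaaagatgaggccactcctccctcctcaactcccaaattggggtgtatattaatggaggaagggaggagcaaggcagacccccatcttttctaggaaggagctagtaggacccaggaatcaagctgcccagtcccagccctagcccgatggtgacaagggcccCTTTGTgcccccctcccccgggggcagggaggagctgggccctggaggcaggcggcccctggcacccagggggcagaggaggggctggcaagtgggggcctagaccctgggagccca
A match of this length is a description of the letters and not of binding.

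The 8 genes spanned a wide range of levels in the gland, compared here as CPM per kilobase of annotated exon averaged over all 6 libraries. Pmp22 stood highest at 12.0 ± 1.06 CPM per kilobase, followed by Mbp at 2.78 ± 0.263 and S100b at 1.81 ± 0.615 (SD, n = 6 libraries of both genotypes). Prx and Sox10 followed with 0.916 ± 0.220 and 0.904 ± 0.222 CPM per kilobase, and Ncam1, Cdh19 and Mag were lowest with 0.166 ± 0.0410, 0.144 ± 0.0607 and 0.0799 ± 0.0438 CPM per kilobase. Neighbours in this order overlapped, except that Pmp22 lay above all libraries of Mbp and that Prx and Sox10 lay above all libraries of Ncam1. By their ranges over all libraries, Prx and Sox10 could not be ordered, nor could Ncam1, Cdh19 and Mag. The ranges of Mbp and S100b overlapped at the edge (2.36 to 3.08 against 0.802 to 2.54 CPM per kilobase). Within each library, Mbp lay above S100b, S100b above Prx, and Ncam1 above Mag, which had few counts. The order of Prx and Sox10, and of Cdh19 with Ncam1 or Mag, changed between libraries.

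**Figure D1:**
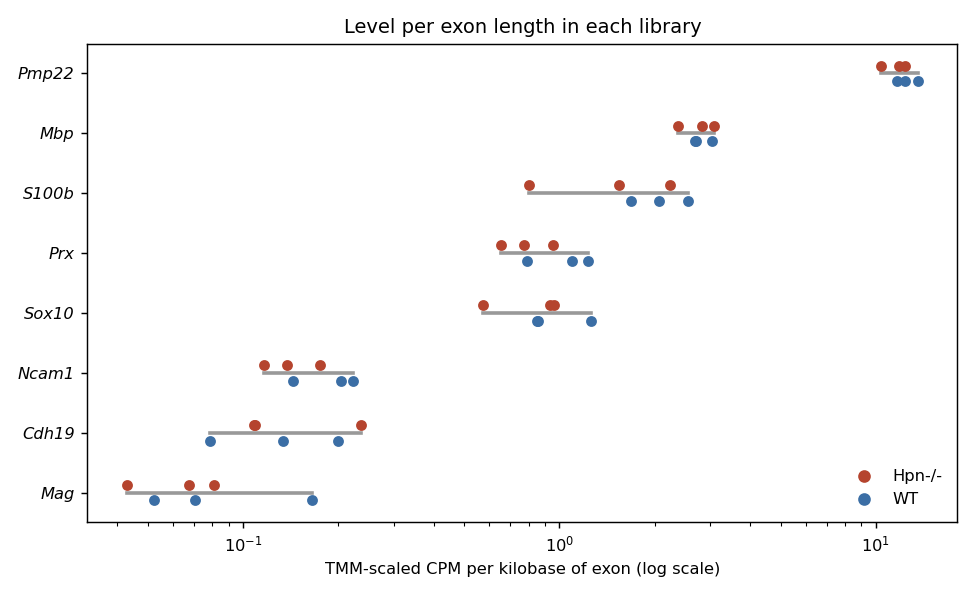
Level of the 8 genes in each library, as TMM-scaled CPM per kilobase of exon on a log axis, with Hpn-/- libraries above the grey range line and WT libraries below it. Pmp22 (10.4 to 13.6) was the most abundant and Mag (0.0429 to 0.165) the least, and the libraries of both genotypes interleaved in most genes.

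Among the sheath proteins, Pmp22 (ENSMUSG00000018217.12, chromosome 11, 63128982 to 63159547, plus strand, GRCm38), a tetraspan protein of compact myelin whose gene dosage underlies hereditary neuropathies in humans, was at 24.4, 29.1 and 27.9 CPM in Hpn-/- replicates 1, 2 and 3, and at 32.0, 27.5 and 29.1 CPM in WT replicates 1, 2 and 3. The groups overlapped, with Hpn-/- replicate 1 lowest and the 2 week WT replicate 1 highest, and the highest library had 1.31 times the level of the lowest. The log2 fold change (Hpn-/- over WT) was -0.13 (SE 0.128, adjusted p = 0.920 in edgeR's quasi-likelihood test, adjusted over the 12520 genes), a fold of 0.916 with a 95% interval of 0.760 to 1.11. Mbp (ENSMUSG00000041607.17, chromosome 18, 82475146 to 82585637, plus strand), which compacts the cytoplasmic side of the sheath, was at 20.0, 26.0 and 23.9 CPM in Hpn-/- replicates 1, 2 and 3, and at 22.9, 22.6 and 25.8 CPM in WT replicates 1, 2 and 3. The WT libraries lay within the range of the Hpn-/- libraries. edgeR put its log2 fold change at -0.03 (SE 0.132, adjusted p = 0.990). The 95% interval of the fold ran from 0.808 to 1.19, the tightest but one of the 6 tested genes.

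Prx (ENSMUSG00000053198.13, chromosome 7, 27499324 to 27520214, plus strand), the periaxin gene, was at 3.63, 5.32 and 4.31 CPM in Hpn-/- replicates 1, 2 and 3, and at 6.12, 4.40 and 6.88 CPM in WT replicates 1, 2 and 3. The 2 week and 5 week WT libraries were above all Hpn-/- libraries, but the 6 week WT replicate 2 lay among them, so the groups overlapped. Its mean was 4.42 ± 0.847 CPM in Hpn-/- and 5.80 ± 1.27 CPM in WT glands (SD, n = 3 each), and edgeR put the log2 fold change at -0.41 (SE 0.203, unadjusted p = 0.0583 and adjusted p = 0.761), with a fold interval of 0.557 to 1.01. Between the 5 week libraries, 1 of each genotype, the difference was -0.67 on the log2 scale. Between the mean of the 6 week Hpn-/- replicates 1 and 2 and the single 6 week WT library it was -0.00011. These 2 Hpn-/- libraries lay on either side of that WT library. With so few libraries, a difference between the ages cannot be told from the spread between libraries. The predicted gene Gm15541 overlaps Prx on the opposite strand, and since the strand setting of the counting is not given, the counts of Prx are uncertain. Mag (ENSMUSG00000036634.15, chromosome 7, 30899176 to 30914873, minus strand), an adhesion protein of the membrane next to the axon, had 5, 3 and 3 counts in Hpn-/- replicates 1, 2 and 3, and 3, 3 and 8 counts in WT replicates 1, 2 and 3. These 25 counts did not pass the filter, and no difference was detectable at this depth. The ratio of the summed, size-scaled counts was 0.663, and its exact 95% interval, which is for counting error alone, was 0.272 to 1.57. Mag lies 183851 bases from Hpn on the same chromosome, the closest of the 8 to the disrupted locus.

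**Figure D2:**
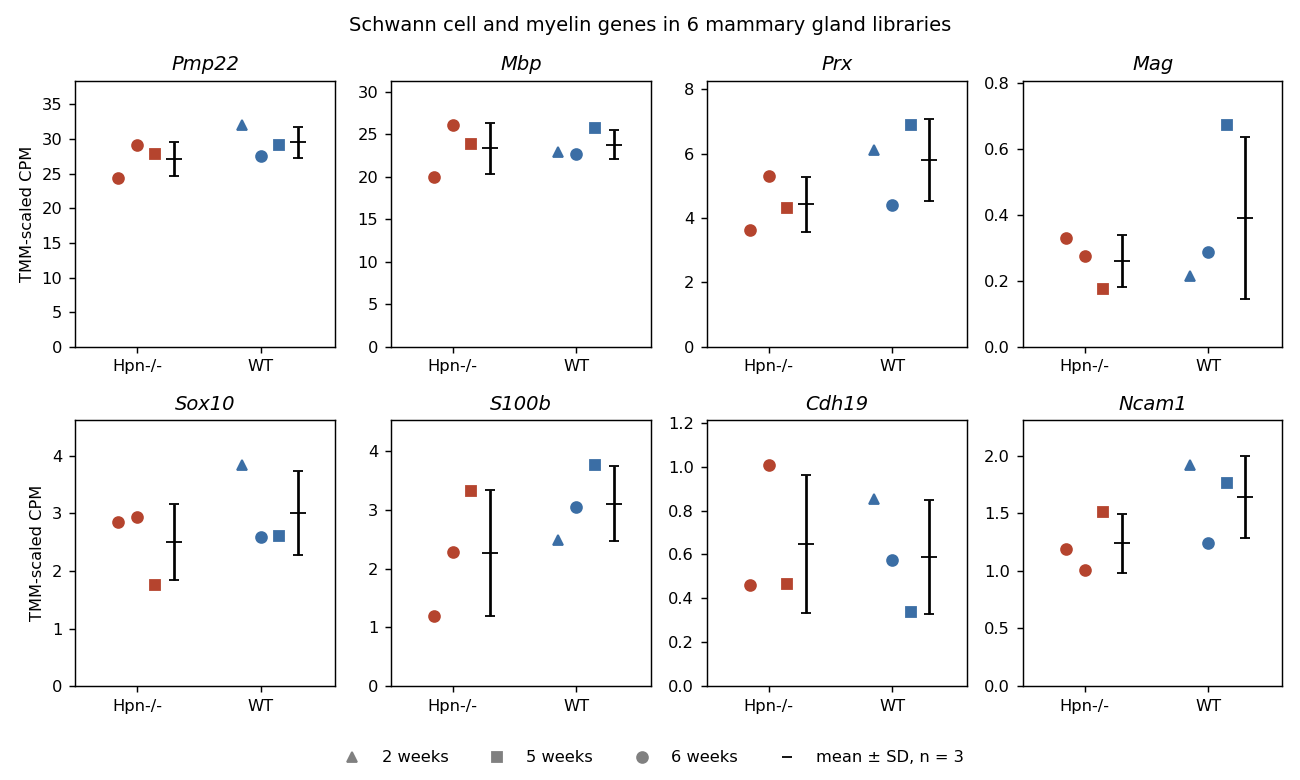
Level of each of the 8 genes in the 3 Hpn-/- libraries (left) and the 3 WT libraries (right), in TMM-scaled CPM, with the shape giving the age and the bar the mean and SD. The groups overlapped in every panel. As the ratio of the highest to the lowest library, the spread was smallest in Pmp22 (1.31, 24.4 to 32.0 CPM) and Mbp (1.30, 20.0 to 26.0 CPM).

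The transcription factor gene Sox10 (ENSMUSG00000033006.10, chromosome 15, 79154908 to 79165240, minus strand) was at 2.84, 2.93 and 1.75 CPM in Hpn-/- replicates 1, 2 and 3, and at 3.85, 2.58 and 2.6 CPM in WT replicates 1, 2 and 3. The 2 week WT replicate 1 was highest and the 5 week Hpn-/- replicate 3 lowest, and the other 4 libraries lay close together. In edgeR the log2 fold change was -0.30 (SE 0.259, adjusted p = 0.908), with a fold interval of 0.556 to 1.19. It was -0.07 without the 2 week WT replicate 1 (adjusted p = 0.998) and -0.08 without Hpn-/- replicate 3 (adjusted p = 0.933), so each of these libraries moved it by more than 3 times. Markers of mammary epithelium, which also uses Sox10, summed over 14 genes to 103, 120 and 75.1 CPM in Hpn-/- replicates 1, 2 and 3, and to 94.0, 82.0 and 74.9 CPM in WT replicates 1, 2 and 3. Their part in the Sox10 values was not tested. Of 8 melanocyte genes, another lineage with Sox10, 4 (Mlana, Tyrp1, Tyr and Slc45a2) had no count in any library, and Dct and Pmel had 4 and 7 counts over all libraries, while Kit and Mitf, which other cells use as well, were tested and not called.

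Among the surface and cytoplasmic markers, S100b (ENSMUSG00000033208.7, chromosome 10, 76253853 to 76261159, plus strand), a calcium-binding protein, was at 1.19, 2.29 and 3.32 CPM in Hpn-/- replicates 1, 2 and 3, and at 2.49, 3.06 and 3.77 CPM in WT replicates 1, 2 and 3. Hpn-/- replicate 1 stood far below the rest, and Hpn-/- replicate 3 lay between the WT libraries. Its mean was 2.27 ± 1.07 CPM in Hpn-/- and 3.11 ± 0.643 CPM in WT glands (SD, n = 3 each), and edgeR put the log2 fold change at -0.43 (SE 0.315, adjusted p = 0.872), with a fold interval of 0.464 to 1.18. Without Hpn-/- replicate 1, the library with the highest muscle sum, the log2 fold change was -0.12 (adjusted p = 0.983), and without Hpn-/- replicate 3 it was -0.88 (adjusted p = 0.171). Adipocyte genes, summed over 12, ranged from 2364 to 2739 CPM in Hpn-/- and from 2274 to 2831 CPM in WT glands, and their part in the S100b values was not tested.

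Ncam1 (ENSMUSG00000039542.16, chromosome 9, 49502136 to 49798925, minus strand), an adhesion molecule of non-myelinating Schwann cells, was at 1.19, 1.01 and 1.51 CPM in Hpn-/- replicates 1, 2 and 3, and at 1.92, 1.24 and 1.76 CPM in WT replicates 1, 2 and 3. Hpn-/- replicate 3 exceeded WT replicate 2, so the groups overlapped, although each Hpn-/- library lay below the WT library of its own age. The log2 fold change was -0.40 (SE 0.303, adjusted p = 0.883 in edgeR), with a fold interval of 0.487 to 1.18. Gm11149 overlaps Ncam1 on the opposite strand, so the counts of Ncam1 are uncertain in the way those of Prx are. Cdh19 (ENSMUSG00000047216.8, chromosome 1, 110888326 to 110977584, minus strand), a cadherin of the Schwann cell lineage, had 7, 11 and 8 counts in Hpn-/- replicates 1, 2 and 3, and 12, 6 and 4 counts in WT replicates 1, 2 and 3. It did not pass the filter, and its ratio of the summed, size-scaled counts was 0.997, with exact 95% limits of 0.543 and 1.84 for counting error alone, so a difference of either sign was not detectable at this depth.

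None of the 6 tested genes passed at an adjusted p under 0.05 in edgeR, where 0.016% of all tested genes did, and none had an unadjusted p under 0.05, where 2.9% of all tested genes had one with a lower and 3.98% with a higher level in Hpn-/-. DESeq2 (all 8 genes) and limma-voom (the same 6) also gave 0 calls and 0 unadjusted p under 0.05, whereas among all 16 alternatives Prx had an unadjusted p under 0.05 in 4 (upper quartile scaling, no count filter, without Hpn-/- replicate 2 and without WT replicate 2) and S100b in 1 (without Hpn-/- replicate 3), with no call in any. All 6 log2 fold changes were below 0, from -0.43 to -0.03 with a median of -0.35, beside a median of 0.0047 and 49.1% below 0 over all tested genes. With age as a covariate the 6 values were also below 0, with a median of -0.16, and the median was -0.17 without the 2 week WT replicate 1 and -0.21 without Hpn-/- replicate 1. The 6 were not tested together, and the count ratios of the other 2, given above, have intervals on both sides of 1. The groups overlapped in all 8, where 5.04% of all tested genes were lower and 5.94% higher in every Hpn-/- library than in every WT library. No change was called in these genes. In whole tissue, a change in the share of Schwann cells or other cells that use them could not be told from a change of RNA per cell.

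**Figure D3:**
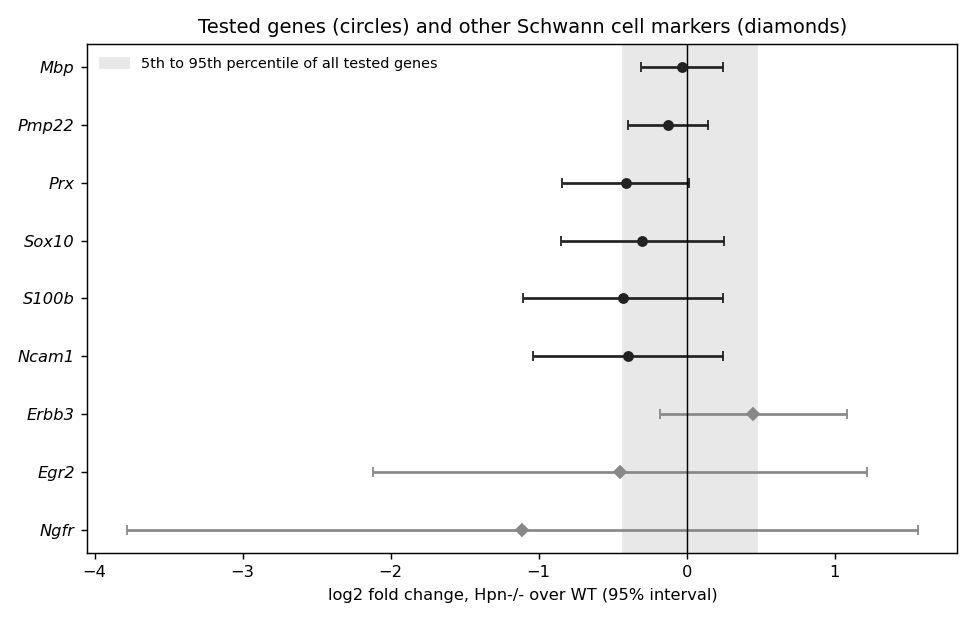
Log2 fold change (Hpn-/- over WT) with its 95% interval for the 6 tested genes (circles) and 3 other Schwann cell markers (diamonds), with the grey band marking the 5th to 95th percentile of all tested genes (-0.43 to 0.47). Every interval includes 0, and those of Mbp and Pmp22 are the narrowest.

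The wider Schwann cell genes were counted in 4 lists that, with the 8 genes, hold 59 genes, and the 51 others are described here. Of these 31 were tested, 20 with lower and 11 with higher values in Hpn-/- glands and a median log2 fold change of -0.10. None was called, 1 (Jun) had an unadjusted p under 0.05, and with no count filter none was called either. Of 18 myelin sheath genes 12 were tested, 10 with lower and 2 with higher values and a median of -0.28, and the list includes Pmp22, Mbp and Prx.

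Cadm4, an adhesion molecule of the internode, was at 1.06, 0.825 and 1.17 CPM in Hpn-/- replicates 1, 2 and 3, and at 1.57, 1.34 and 1.59 CPM in WT replicates 1, 2 and 3, without overlap and without a call (log2 fold change -0.54, adjusted p = 0.821). Myelin lipid genes showed no common direction: of 7, 3 were tested, Aspa at 0.12, Elovl1 at 0.0030 and Cers2, the most abundant per length, at -0.08 on the log2 scale, none called.

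Among 12 transcription factors of the lineage 7 were tested, 5 with lower and 2 with higher values and a median log2 fold change of -0.11, and none was called. Jun, which marks repair Schwann cells but is used by most cells, was at 13.7, 11.6 and 14.7 CPM in Hpn-/- replicates 1, 2 and 3, and at 11.0, 10.8 and 10.9 CPM in WT replicates 1, 2 and 3 (log2 fold change 0.30, unadjusted p = 0.0468, adjusted p = 0.717). The 3 Hpn-/- values exceeded the 3 WT values without overlap, but the difference did not pass. Tfap2a was at 0.62 (adjusted p = 0.862). Pou3f2 had no count in any library, and Pou3f1 and Sox2 had 2 counts each. Of 22 surface and other markers 15 were tested, 10 with lower and 5 with higher values and a median of -0.12, with Adgrg6, a receptor needed for myelination, at -0.48, Kcna1 at -0.52 and the neuregulin receptor Erbb3 at 0.45 (adjusted p of 0.808, 0.826 and 0.848).

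Egr2 and Ngfr, the low-affinity neurotrophin receptor of immature and non-myelinating Schwann cells, varied between libraries more than any of the 6 tested genes: the highest library had 3.87 times the level of the lowest for Egr2 and 18.6 times for Ngfr, against 1.30 times (Mbp) to 3.17 times (S100b). Egr2, named here after its values were seen, was at 3.24, 3.12 and 12.1 CPM in Hpn-/- replicates 1, 2 and 3, and at 7.97, 8.89 and 9.23 CPM in WT replicates 1, 2 and 3. Ngfr was at 3.17, 1.10 and 18.0 CPM in Hpn-/- replicates 1, 2 and 3, and at 20.5, 13.3 and 16.4 CPM in WT replicates 1, 2 and 3. In both genes the 6 week Hpn-/- libraries were low and the 5 week Hpn-/- library was within or above the WT range. The log2 fold changes were -0.45 for Egr2 (SE 0.623, adjusted p = 0.949) and -1.11 for Ngfr (SE 0.981, adjusted p = 0.919). Without Hpn-/- replicate 3, the Hpn-/- library in which both were high, edgeR called Egr2 at -1.45 (adjusted p = 0.000226) and Ngfr at -2.90 (adjusted p = 0.0129). In that fit 0.859% of all tested genes were called lower, and Hpn-/- libraries of 6 weeks met WT libraries of 2, 5 and 6 weeks. It was the only 1 of the 16 alternatives that called either gene. Egr2 was at -0.14 without Hpn-/- replicate 1, and Ngfr was at -0.65 without Hpn-/- replicate 2. Egr2 is also used outside nerves, by activated lymphocytes and macrophages among others. In the fit without Hpn-/- replicate 3 Sox10 was at -0.08 and not called, the largest of the 6 tested genes in size being S100b at -0.88 (adjusted p = 0.171).

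**Figure D4:**
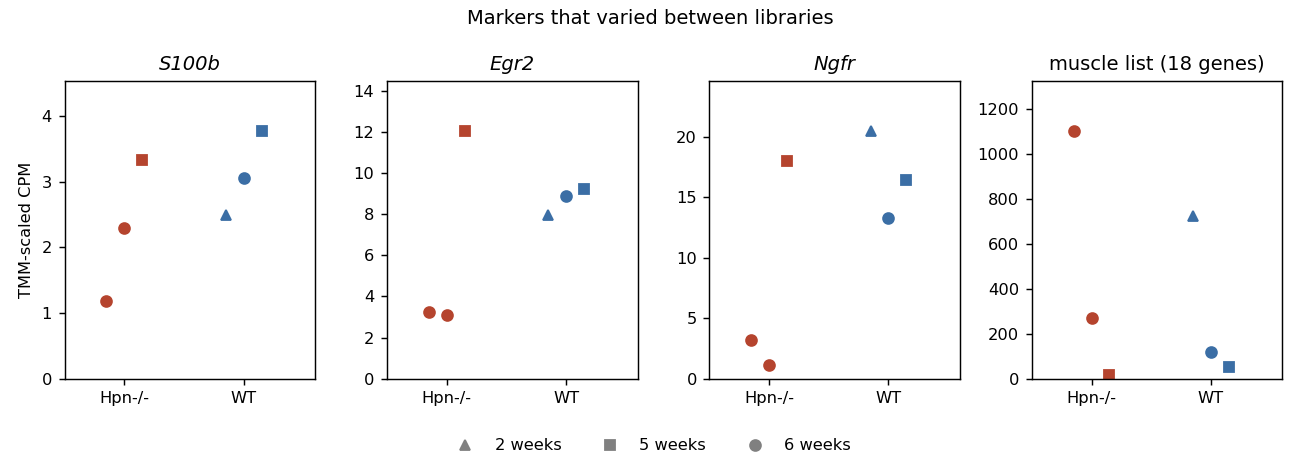
Levels of S100b, Egr2 and Ngfr, and the summed level of 18 skeletal muscle genes, in the 3 Hpn-/- libraries (left) and 3 WT libraries (right), in TMM-scaled CPM, with the shape giving the age. Egr2 and Ngfr were low in the 6 week Hpn-/- libraries (3.24 and 3.12, 3.17 and 1.10 CPM) and high in the 5 week one (12.1 and 18.0 CPM), while S100b was lowest in the library with the most muscle RNA (1104 CPM).

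Genes of other cells of the nervous system were low. None of 15 axon genes passed the filter. They summed to 1.47 to 2.62 CPM in Hpn-/- and 2.10 to 2.63 CPM in WT glands, with Nefl, Scn9a and Scn10a at 0 counts in all libraries. None of 8 oligodendrocyte genes passed either. They summed to 0.463 to 0.932 CPM in Hpn-/- and 0.427 to 1.72 CPM in WT glands, with Mog, Opalin and Olig2 at 0 counts and Cldn11, Myrf and Olig1 at 25, 25 and 20 counts over all libraries. Cldn11, a tight junction gene of oligodendrocyte myelin that other cells use as well, named here after its values were seen, had 0, 1 and 3 counts in Hpn-/- replicates 1, 2 and 3, and 3, 11 and 7 counts in WT replicates 1, 2 and 3. Hpn-/- replicate 3 reached the count of WT replicate 1, but per library size the groups did not overlap. The ratio of its summed, size-scaled counts was 0.161, with exact 95% limits of 0.0401 and 0.476 for counting error alone. With no count filter the log2 fold change of Cldn11 was -2.55 (SE 0.752, adjusted p = 0.104 in edgeR), which did not pass. Per exon length Cldn11, at 0.189 CPM per kilobase, was above Mag. The part of such cells in the Mbp and Mag values was not tested. Of 8 perineurium and endoneurium genes 5 were tested, 3 with higher and 2 with lower values, led by Cldn1 at a log2 fold change of 0.78 (adjusted p = 0.730).

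Marker levels of other cell types that use some of the 8 genes differed between libraries as well. Genes of fibroblasts, which also use Pmp22, summed over 10 to 1991, 2218 and 3016 CPM in Hpn-/- replicates 1, 2 and 3, and to 3770, 2745 and 3438 CPM in WT replicates 1, 2 and 3, with 4 of 10 members at higher and 6 at lower values, among them Col1a1 at a log2 fold change of -0.54 (adjusted p = 0.649). T and NK cell genes, summed over 16, were at 123, 161 and 120 CPM in Hpn-/- replicates 1, 2 and 3, and at 87.7, 114 and 88.1 CPM in WT replicates 1, 2 and 3, and all 13 tested members had higher values, with Il7r at 1.13 (adjusted p = 0.508). Endothelial genes summed over 10 to between 180 and 239 CPM in Hpn-/- and between 197 and 233 CPM in WT glands. None of the genes in these 3 lists was called by edgeR with the count filter, and with no filter Il7r was among those called (adjusted p = 2.231e-07). The part of these cells in the values of the 8 genes was not tested.

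Across the 6 libraries the correlations between the 6 tested genes differed widely by pair. Pearson's r of log2 CPM over the 15 pairs ran from -0.37 (S100b with Sox10) to 0.83 (Pmp22 with Prx), with a median of 0.57. The next highest were Mbp with S100b at 0.73 and Mbp with Prx at 0.72. With so few libraries a high r is common, and 334 tested genes had a higher r with Pmp22 than Prx had. With Mbp, 809 tested genes had a higher r than S100b had, and 826 a higher r than Prx had. For the median pair, 2303 tested genes had a higher r with Ncam1 than Pmp22 had. Sox10 had an r of -0.14 with Mbp, 0.40 with Pmp22 and 0.39 with Prx. These r are descriptions over 6 libraries that share depth, age and tissue makeup.

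The 3 tested genes with the highest r, leaving out predicted genes, were named for each. For Pmp22 they were Miip, Mon1a and Racgap1 (r of 0.985, 0.985 and 0.985 over 6 libraries), and for Mbp Agrn, Ints1 and Tst (0.989, 0.988 and 0.981). For Prx they were Samd1, Tmpo and Zfp946 (0.988, 0.986 and 0.969), and for Sox10 Pros1, Cbx2 and Kdelc2 (0.970, 0.964 and 0.962). The numbers of genes with an r over 0.9 differed between them, 35 of 11628 for Sox10 against 249 for S100b. For S100b the closest were Timm44, Ptms and Acaa2 (0.998, 0.992 and 0.988), and for Ncam1 Iqcc, Col5a3 and Ebf3 (0.994, 0.993 and 0.992).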

How the data were processed

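Per the labels' protocols, total RNA of 6 glands was freed of ribosomal RNA before directional library preparation, and the reads are single-end. The deposited table holds raw counts of reads per gene. The submitters' processing notes name STAR 2.6.0c, featureCounts and GRCm38. The sources used here do not give the strand setting, how multi-mapping reads were treated, or the annotation. All 55450 identifiers matched GENCODE M21, which gave symbols, places and exon lengths (the union of annotated exons).

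edgeR 4.0.16 in R 4.3.3 was fitted to the counts (filterByExpr with a minimum count of 10 and total of 15, TMM scaling, robust quasi-likelihood fit, with no term beside genotype). Its two-sided p-values were Benjamini-Hochberg adjusted over the 12520 genes tested, and 0.05 was the threshold. CPM used the TMM-scaled library sizes, and correlations used log2 CPM with a prior count of 2. Replicates differed beyond counting noise, with 6.72 to 32.1 as the chi-square divided by its degrees of freedom. The test was checked on simulated counts. Alternatives were RLE and upper quartile scaling, other filters, DESeq2 1.42.0, limma-voom (limma 3.58.1), a replicate block, age as a covariate, no loci derived from ribosomal RNA, and leaving out each library. The genes and lists were chosen with earlier results of these data known. Named are Hpn, the 8 genes, called genes, from each list the 3 smallest p and the most abundant per length, and the 3 genes closest in pattern to each tested gene; of the lists for other tissues a few are printed, and some genes that the rule takes are not reported here. Exact intervals of count ratios cover counting error only.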

Additional observations from a re-analysis of the deposited data

How the results depend on the processing

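None of the 8 genes was called under any of the 16 alternatives that fitted it (16 for the 6 tested genes, fewer for Cdh19 and Mag). The log2 fold changes of Pmp22, Prx, Sox10, S100b and Ncam1 stayed below 0 in all 16, over -0.18 to -0.05, -0.57 to -0.29, -0.44 to -0.07, -0.88 to -0.12 and -0.58 to -0.18. Mbp ranged from -0.11 to 0.0553 as single libraries were left out, at 0.0553 without Hpn-/- replicate 1 and 0.02 without WT replicate 3. Cdh19, at 0.04 with no count filter, ranged from -0.25 (without WT replicate 3) to 0.22. The cause was not tested. Over all genes, 2 calls became 100 (76 higher, 24 lower) with no count filter, 8 with DESeq2, 0 with age as a covariate, 4 with age as a covariate without the 2 week library, and from 0 to 200 when single libraries were left out, with 200 without Hpn-/- replicate 3. With the replicate number as a block, 9 genes were called (8 higher, 1 lower), none of the 8. Same-numbered libraries correlated in their deviations at 0.167, 0.0732 and 0.368. Each Hpn-/- library correlated best with the WT library of its own number, and so did WT replicates 1 and 3 with theirs. WT replicate 2 correlated best with Hpn-/- replicate 1. Replicates 2 and 3 also share their age between the genotypes, and whether the numbers pair the samples was not tested. Depth limits Mag and Cdh19, with 25 and 48 counts in all 6 libraries.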
